A study of Mus musculus with 16 samples.

Results

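Agouti-related peptide is made in a small set of neurons of the arcuate nucleus of the hypothalamus and is released together with neuropeptide Y and the inhibitory transmitter GABA. It acts as an inverse agonist and antagonist at the melanocortin receptors MC3R and MC4R, where products of the neighbouring Pomc neurons are agonists, and the balance between the peptides sets feeding drive. Deletion of the gene removes the peptide while the neurons that would make it remain.

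The comparison described here set hypothalamic RNA of AgRP-/- mice against that of AgRP+/- mice, both male, on a strain background given as mixed, and with free access to food. It took the 4 arrays titled as AgRP-/- and fed ad libitum and the 4 titled as AgRP+/- and fed ad libitum, 8 of the 16 arrays of the series, over 13662 probes kept out of 25697. The other 8 arrays, 4 of AgRP-/- and 4 of AgRP+/- mice fasted for 30 h, entered the estimate of the spread and gave the same genotype difference in arrays that the fed comparison did not use. All groups carried at least 1 deleted copy of the gene, so the mice set against the knockouts were heterozygotes and not wild type. Ages are not in the labels, which also do not tie arrays to different animals; the p-values then speak only for the scatter among these arrays, possibly technical. Values are log2 intensities of Illumina bead arrays, on which 1 unit is a doubling, and differences are AgRP-/- minus AgRP+/-. A probe was called when its p from limma, adjusted over all kept probes, was under 0.05.

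The 8 fed arrays correlated with each other between 0.985 and 0.992. The mean of the pituitary hormone genes Gh and Prl read 4.48 to 5.65 in AgRP-/- fed and 4.34 to 7.56 in AgRP+/- fed arrays, and the array at 7.56 was AgRP+/- fed replicate 2. The mean of the midbrain dopamine genes Slc6a3, Chrna6 and Th read 6.53 to 7.98 in AgRP-/- fed and 6.98 to 7.88 in AgRP+/- fed arrays. In AgRP-/- fed arrays the dimmest kept Actb probe lay between 4.68 and 6.39 below the brightest, against 5.27 to 6.19 in AgRP+/- fed arrays. Hypothalamic peptide genes were bright in all 8 fed arrays: Pmch, which encodes melanin-concentrating hormone, read 13.63 to 13.87 in AgRP-/- and 13.53 to 13.83 in AgRP+/- mice, and Oxt, which encodes oxytocin, 13.01 to 13.29 in AgRP-/- and 12.85 to 13.34 in AgRP+/- mice.

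A single probe separated the genotypes beyond the threshold. It is ILMN_2703427, which has no gene symbol in the annotation used here, and 0 probes on the array are named Agrp. It read 4.52, 4.46, 4.47 and 4.57 in AgRP-/- fed arrays, against 7.68, 8.06, 9.32 and 8.36 in AgRP+/- fed arrays. All AgRP-/- arrays lay near 4.49, the lower quartile of the table, and every AgRP+/- array was over 3 units brighter. The difference was -3.85 (SE 0.27, limma adjusted p = 1.49e-07), or at least 14.4-fold lower in AgRP-/- mice, since signal at the floor cannot be separated from background. An exact two-sided permutation test of the 8 arrays gave p = 0.0286, its smallest possible value at this number of arrays. The probe was picked because earlier results of these data showed it to separate the genotypes, so this p is no added support. The probe passed the filter only through AgRP+/- arrays. In the fasted arrays it averaged 4.50 ± 0.0853 in AgRP-/- mice and 10.36 ± 0.59 in AgRP+/- mice (SD, n = 4 each). No name ties the probe to the deleted gene, so the genotype labels are unchecked at the level of the gene.

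**Figure D1:**
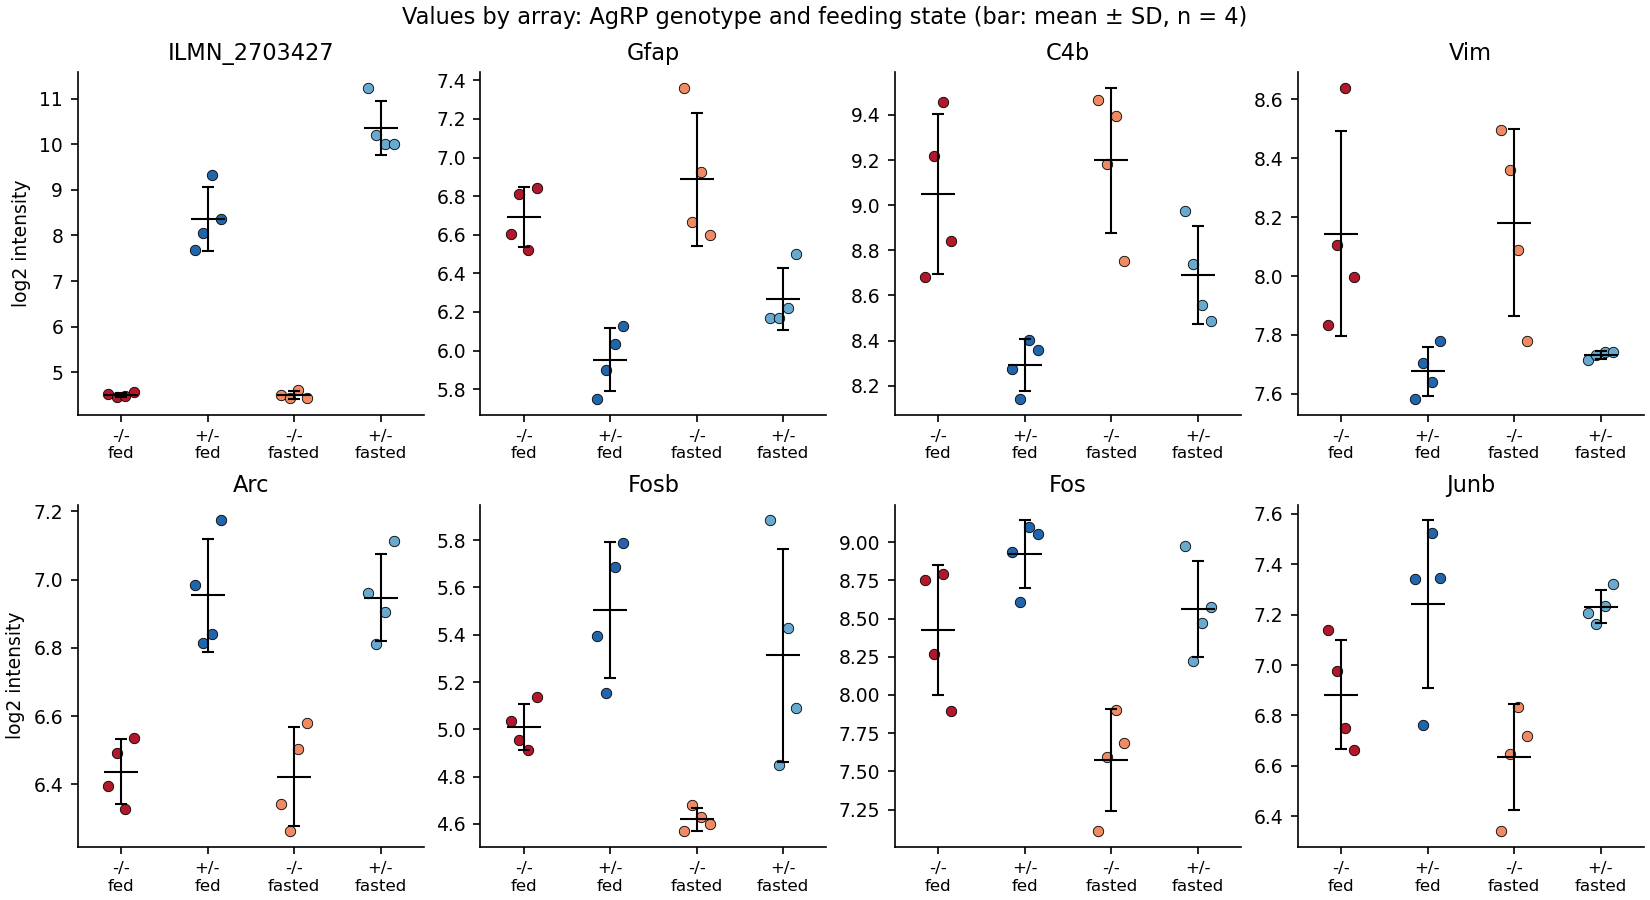
Log2 intensity (y axis) of 8 probes in each array, by genotype and feeding state (x axis, AgRP-/- left of AgRP+/-); points are arrays and bars are mean ± SD (n = 4). ILMN_2703427 lies near 4.5 in all AgRP-/- arrays, Gfap, C4b and Vim are brighter in all 4 AgRP-/- fed arrays than in any AgRP+/- fed array, and Arc and Fosb are dimmer.

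This 1 call was 0.00732% of the 13662 kept probes, and it was lower in AgRP-/- mice. At an unadjusted p under 0.05 there were 584 probes (4.27%), 324 higher and 260 lower in AgRP-/- mice, where 683.1 would be expected if no probe differed. Over the 9530 named genes, 409 (4.29%) had an unadjusted p under 0.05, and for 219 (2.3%) the 4 AgRP-/- and the 4 AgRP+/- fed arrays did not overlap. The median SE of a difference was 0.128, and the 95% interval of the difference, before any adjustment, lay within 1 unit of 0 for 99.0% of the probes and within 0.5 for 78.4%. Except for ILMN_2703427, the values below are therefore differences that did not pass the test across all probes, given as measured.

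**Figure D2:**
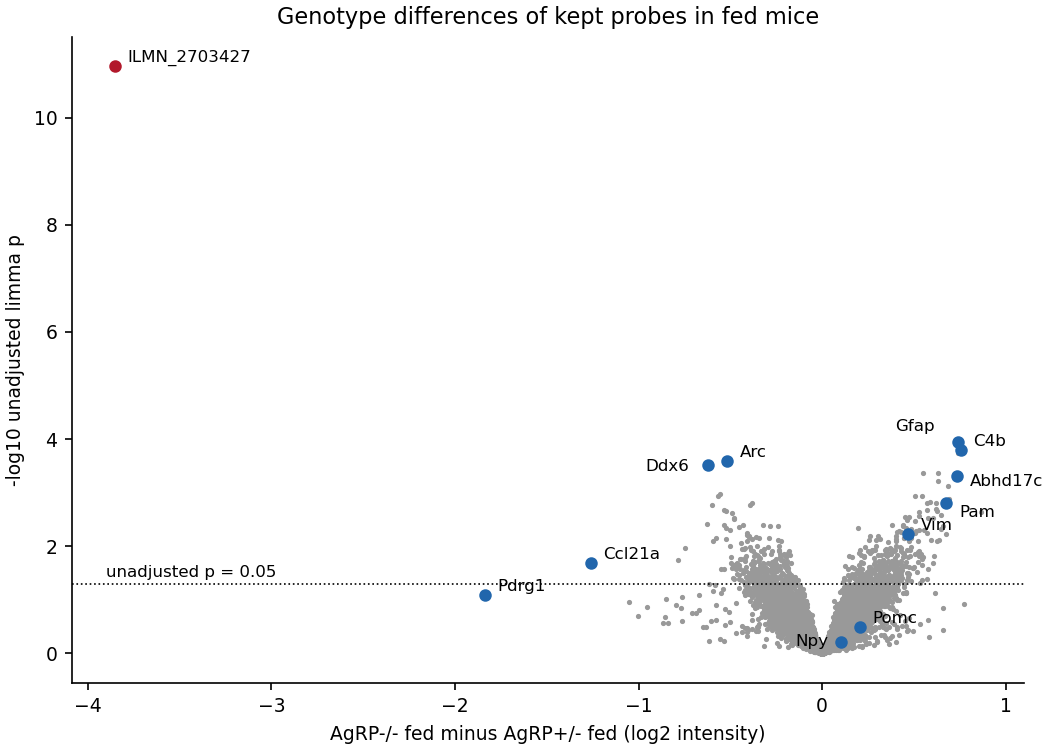
Difference between AgRP-/- fed and AgRP+/- fed arrays (x axis, log2 intensity) against -log10 of the unadjusted limma p (y axis) for the 13662 kept probes, with the called probe in red and named genes in blue. ILMN_2703427 stands alone at -3.85, and Gfap, C4b, Ddx6 and Arc are the named genes with the smallest p among those marked.

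Peptide genes of the arcuate nucleus showed no called difference. Npy, the orexigenic peptide that the AgRP neurons also make, read 9.76, 9.93, 10.01 and 9.56 in AgRP-/- fed arrays, against 9.26, 9.55, 10.33 and 9.69 in AgRP+/- fed arrays. The groups overlapped, with the highest and the lowest of the 8 values both in AgRP+/- mice. The difference was 0.10 (95% interval -0.32 to 0.52, limma adjusted p = 0.999). Pomc, the precursor of the melanocortin agonists, read 8.34, 8.33, 8.30 and 8.15 in AgRP-/- fed arrays, against 7.73, 7.81, 8.86 and 7.90 in AgRP+/- fed arrays. All 4 AgRP-/- values were above 3 of the AgRP+/- values and below the fourth. The difference was 0.21 (95% interval -0.21 to 0.63), and 0.47 without AgRP+/- fed replicate 3 (limma adjusted p = 0.811, unadjusted 0.00649). Cartpt, which encodes the anorexigenic peptide CART of the same neurons, read 11.97 to 12.27 in AgRP-/- and 11.93 to 12.18 in AgRP+/- mice, a difference of 0.10 (95% interval -0.13 to 0.32). A dimmer Cartpt probe read 0.23 (limma adjusted p = 0.999, unadjusted 0.0681).

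AgRP+/- fed replicate 3 was also the highest AgRP+/- fed array for Npy, Cartpt, Gal, Kiss1, Pdyn, Sst and Nts, that is for 8 of 10 peptide genes compared with Pomc included, and for ILMN_2703427. How often it was highest over all genes was not counted. Outside the arcuate peptides this array was also the highest for Oxt, Avp, Trh and Adcyap1, and the lowest for Hcrt and Pmch. Npy differed by 0.31 without it (limma adjusted p = 0.915, unadjusted 0.105). In this bulk tissue, more cells of a type and more RNA per cell cannot be told apart.

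Of 15 listed arcuate feeding peptide genes 12 were kept, 9 of them above 0 (49.1% of all genes were), with a median difference of 0.099 against -0.0028 over all kept genes. Leaving out AgRP+/- fed replicate 1 gave a median of 0.029, and it was 0.031 with the difference between the Actb probes as a covariate, with 5 of the 12 below 0 in either case. Only Nts, which encodes neurotensin, had an unadjusted p under 0.05 (-0.41, limma adjusted p = 0.999, unadjusted 0.0487), where 4.29% of all genes did. None had groups that did not overlap, against 2.3% of all genes. Nts read 6.88, 7.48, 6.34 and 7.30 in AgRP-/- fed arrays, against 7.32, 7.26, 7.58 and 7.46 in AgRP+/- fed arrays, so its groups overlapped and AgRP-/- replicates 1 and 3 were the low ones. Ghrh, which drives growth hormone release, read 0.13, Gal, which encodes galanin, -0.15, and Sst, which encodes somatostatin, 0.02. Kiss1, Tac2 and Pdyn, made together in arcuate neurons that pace the reproductive axis, read -0.24, 0.15 and 0.13.

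Receptors of these peptides likewise gave no call. Mc4r, the melanocortin receptor through which AgRP acts on energy balance, read 5.99, 6.07, 5.76 and 5.84 in AgRP-/- fed arrays, against 5.78, 6.23, 6.29 and 6.28 in AgRP+/- fed arrays. All AgRP-/- values lay below 3 of the AgRP+/- values, while AgRP+/- replicate 1 lay among them, and the difference was -0.23 (95% interval -0.52 to 0.06). Mc3r, the other central melanocortin receptor, differed by 0.06 (95% interval -0.22 to 0.33). The neuropeptide Y receptor genes Npy1r, Npy2r and Npy5r read -0.13, 0.09 and -0.05. Npy4r, the receptor that prefers pancreatic polypeptide, differed by -0.41 (limma adjusted p = 0.999, unadjusted 0.037), but its groups overlapped. It exceeded the table median in only 4 of the 16 arrays, mostly AgRP+/- fed ones, so it passed the filter through the higher group.

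In the melanocortin list, 9 of 19 genes were kept and 1 had an unadjusted p under 0.05, against 4.29% of all genes. It was Pam, the enzyme that amidates the C terminus of many peptide hormones. Pam read 6.01, 5.94, 5.97 and 6.36 in AgRP-/- fed arrays, against 5.23, 5.68, 5.26 and 5.41 in AgRP+/- fed arrays. The groups did not overlap, and all AgRP-/- arrays were brighter. The difference was 0.68 (SE 0.18, limma adjusted p = 0.999, unadjusted 0.00155). In the fasted arrays Pam differed by 0.25 and its groups overlapped. The other 8 kept genes of peptide processing did not reach an unadjusted p under 0.05.

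**Figure D3:**
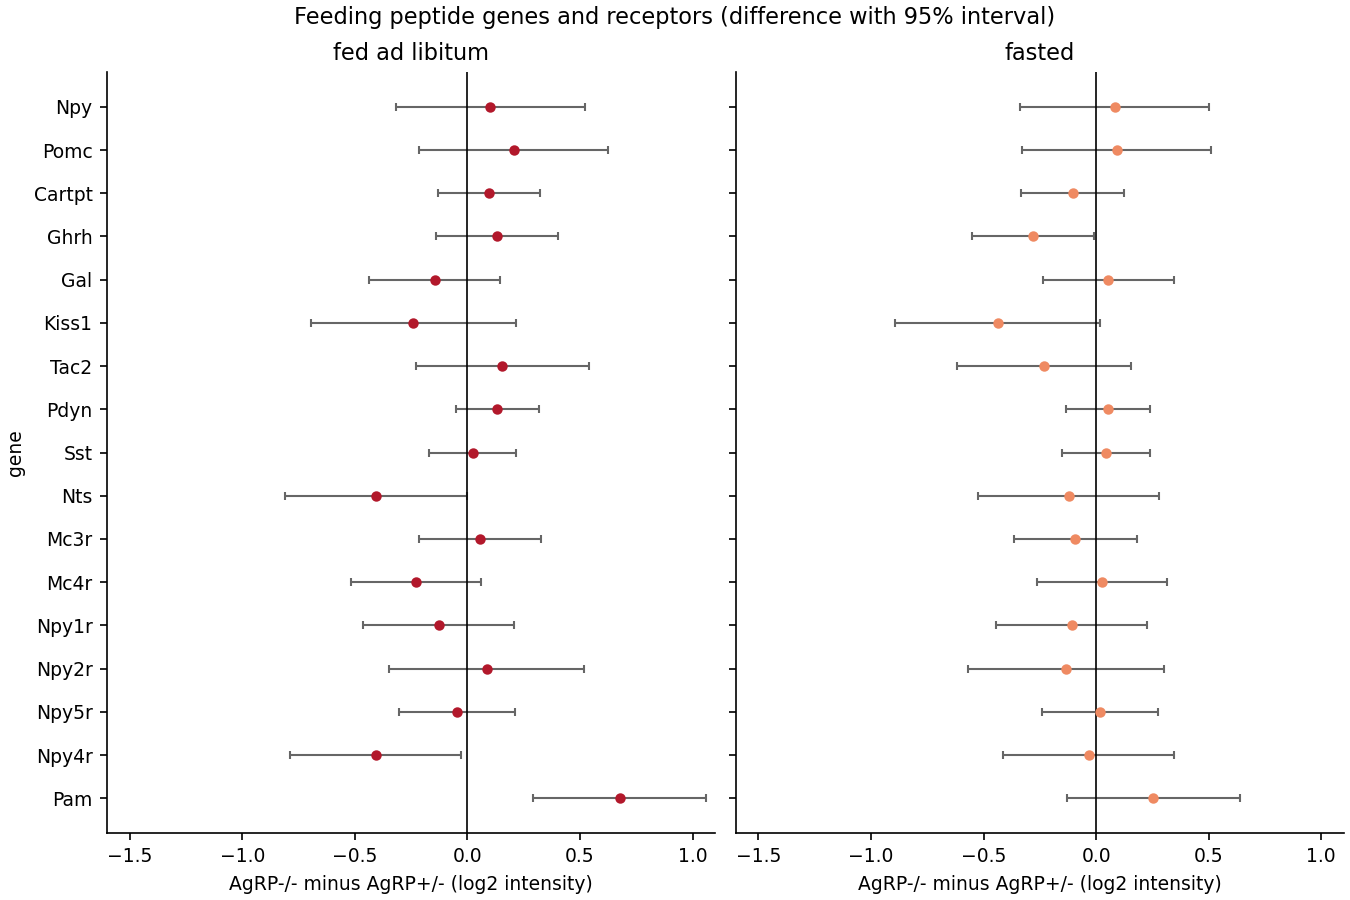
Genotype difference (x axis, AgRP-/- minus AgRP+/-, log2 intensity) with its unadjusted 95% interval for 17 peptide, receptor and processing genes (y axis), in fed mice on the left and fasted mice on the right. In fed mice the intervals of Nts, Npy4r and Pam exclude 0, and those of Npy, Pomc and Cartpt hold it.

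Neuropeptides of other hypothalamic nuclei gave no call either. Of 32 listed genes 24 were kept, 14 above 0 and 10 below, with a median of 0.057. An unadjusted p under 0.05 was found for 1 (Nts), against 4.29% of all genes. Avp, which encodes vasopressin, read 0.31 (95% interval -0.07 to 0.69), Adcyap1, which encodes PACAP, 0.22 (95% interval 0.00 to 0.44 after rounding), and Hcrt, which encodes orexin, 0.21 (95% interval -0.14 to 0.56). Trh, Pmch and Oxt read 0.14, 0.10 and 0.07.

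Genes enriched in AgRP neurons showed 0 of 13 kept members at an unadjusted p under 0.05, against 4.29% of all genes, and a median of 0.023. Abcc8, the sulfonylurea receptor subunit of ATP-sensitive potassium channels, was the 1 member of the 13 whose groups did not overlap, against 2.3% of all genes. It read 6.08, 6.14, 6.06 and 5.95 in AgRP-/- fed arrays, against 6.41, 6.19, 6.29 and 6.27 in AgRP+/- fed arrays. All AgRP-/- arrays were dimmer, by 0.23 on average (95% interval -0.49 to 0.02). In fasted mice its groups also did not overlap, as for 2.65% of all genes in the lower direction. The difference there was -0.30 (limma adjusted p = 0.690, unadjusted 0.0211). Slc32a1, the vesicular GABA transporter, read -0.12, and Gad1, which makes GABA, -0.19. A dimmer Gad1 probe read -0.35 (limma adjusted p = 0.999, unadjusted 0.0146). In a separate list of GABA and glutamate genes 1 of 9 kept members had an unadjusted p under 0.05, against 4.29% of all genes. It was Slc17a8, the vesicular glutamate transporter VGLUT3, which is not on the AgRP neuron list. Slc17a8 differed by -0.34 (limma adjusted p = 0.999, unadjusted 0.0266) with groups that did not overlap.

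Immediate early genes are transcribed within minutes of strong neuronal firing without new protein synthesis, through factors such as CREB and serum response factor that are already bound or ready at their promoters. Their products are transcription factors such as FOS and EGR1 or act at synapses, as ARC does. They are widely used as markers of recent neuronal activity.

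The promoters of 4 of them are shown because these genes gave the group with the most members at low p in the fed comparison. Each is the RefSeq window from 250 bases before to 50 bases after the gene start (assembly GRCm38.p6), 5′ to 3′ on the gene's strand, with capitals for TGACG or its reverse complement CGTCA, which is part of the binding site of CREB.
Fos, chr12:85473640-85473939, plus strand: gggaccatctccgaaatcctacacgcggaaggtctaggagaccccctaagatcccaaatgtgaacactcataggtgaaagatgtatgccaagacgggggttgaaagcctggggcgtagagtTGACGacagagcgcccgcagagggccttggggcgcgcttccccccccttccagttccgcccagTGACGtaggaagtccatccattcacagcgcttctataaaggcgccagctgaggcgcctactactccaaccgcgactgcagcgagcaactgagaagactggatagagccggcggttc
Fosb, chr7:19309996-19310295, minus strand: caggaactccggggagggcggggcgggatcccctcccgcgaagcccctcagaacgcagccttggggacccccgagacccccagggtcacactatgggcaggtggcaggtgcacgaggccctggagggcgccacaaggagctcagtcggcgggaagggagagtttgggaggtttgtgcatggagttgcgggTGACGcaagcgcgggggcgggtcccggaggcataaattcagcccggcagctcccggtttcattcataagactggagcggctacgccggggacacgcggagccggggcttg
Junb, chr8:84978699-84978998, minus strand: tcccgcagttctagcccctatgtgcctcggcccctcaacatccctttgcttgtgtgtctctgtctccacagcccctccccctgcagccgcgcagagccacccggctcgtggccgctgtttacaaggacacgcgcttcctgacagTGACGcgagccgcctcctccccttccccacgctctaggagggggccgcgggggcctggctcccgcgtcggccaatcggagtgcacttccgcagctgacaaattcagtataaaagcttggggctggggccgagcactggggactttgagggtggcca
Npas4, chr19:4989922-4990221, minus strand: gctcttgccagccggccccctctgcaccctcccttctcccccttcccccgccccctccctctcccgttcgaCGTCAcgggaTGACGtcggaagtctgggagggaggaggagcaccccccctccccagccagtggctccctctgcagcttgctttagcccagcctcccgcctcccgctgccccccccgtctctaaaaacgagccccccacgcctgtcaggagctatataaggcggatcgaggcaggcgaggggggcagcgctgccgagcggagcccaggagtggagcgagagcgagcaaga

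A TGACG on either strand was found in the windows of 10 of the 12 kept immediate early genes that had one in the table, counting a gene with several windows once, and in 20.8% of all 32851 windows. The full palindrome TGACGTCA, which contains both, was found in 1 of the 12 (Dusp1) and in 1.79% of all windows, and the CArG box of serum response factor in 1 of the 12 (Egr2) and in 1.63%. The shares of genes and of windows are unlike, since Bdnf (7 windows), Egr2 (5) and Homer1 (2) had more chances of a match than 1 window. These are matches of letters in a short window and do not show binding. Arc and Egr1 are without a printed window.

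In fed AgRP-/- mice 11 of 15 kept immediate early genes lay below 0, where 50.9% of all genes did, and the list median was -0.18. Of the 15 genes 5 were lower at an unadjusted p under 0.05, against 1.91% of all genes, 0 were higher, against 2.38% of all genes, and 0 were called. Fosb, among the 5, and Egr2, among the 11, passed the filter only with AgRP+/- arrays counted, the group in which they were high. Arc, which encodes a synaptic protein that removes glutamate receptors, read 6.39, 6.49, 6.33 and 6.54 in AgRP-/- fed arrays, against 6.98, 6.81, 6.84 and 7.17 in AgRP+/- fed arrays. The groups did not overlap, with the dimmest AgRP+/- array above the brightest AgRP-/- array. Arc averaged 6.44 ± 0.0944 in AgRP-/- and 6.95 ± 0.165 in AgRP+/- fed mice (SD, n = 4 each). The difference was -0.52 (SE 0.12), or 1.43-fold lower in AgRP-/- mice (limma adjusted p = 0.689, unadjusted 0.000252).

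Fosb, which encodes an AP-1 transcription factor, read 5.03, 4.96, 4.91 and 5.14 in AgRP-/- fed arrays, against 5.4, 5.15, 5.68 and 5.79 in AgRP+/- fed arrays. Its groups did not overlap by a narrow margin, and the AgRP-/- values lay around the table median of 5.12, so the difference of -0.50 (SE 0.19, limma adjusted p = 0.999, unadjusted 0.0161) is that of a dim probe. Fos, the founding member of that family, read 8.75, 8.27, 8.79 and 7.90 in AgRP-/- fed arrays, against 8.93, 8.61, 9.10 and 9.05 in AgRP+/- fed arrays. The groups overlapped, since AgRP+/- replicate 2 was dimmer than AgRP-/- replicates 1 and 3, and the difference was -0.50 (SE 0.20, limma adjusted p = 0.999, unadjusted 0.0204).

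Junb, an AP-1 partner, read 7.14, 6.98, 6.75 and 6.66 in AgRP-/- fed arrays, against 7.34, 6.76, 7.53 and 7.34 in AgRP+/- fed arrays. The groups overlapped through AgRP+/- replicate 2, and the difference was -0.36 (SE 0.15, limma adjusted p = 0.999, unadjusted 0.0275). Npas4, a factor induced by calcium entry into neurons, read 5.97, 5.77, 5.94 and 5.86 in AgRP-/- fed arrays, against 6.22, 5.88, 6.27 and 7.09 in AgRP+/- fed arrays. AgRP+/- replicate 4 stood highest, and without that array the difference of -0.48 (limma adjusted p = 0.999, unadjusted 0.0393) was -0.24 (unadjusted 0.222). A dimmer Npas4 probe read -0.18 in fed and 0.25 in fasted mice. Egr1, Egr2, Egr4 and the phosphatase gene Dusp1 read -0.18, -0.31, -0.17 and -0.22 in fed mice, with overlapping groups.

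The count of 5 lower genes depended on single arrays and on the filter. It was 1 without AgRP+/- fed replicate 4, 2 without AgRP-/- fed replicate 4, 3 without AgRP+/- fed replicate 3 and 6 without AgRP+/- fed replicate 2, the array with pituitary transcripts, while at least 11 of the 15 genes stayed below 0 in each case. Leaving out AgRP+/- fed replicate 2 gave a list median of -0.33, and it was -0.090 without AgRP+/- fed replicate 3. Without the latter array 1 gene was higher at an unadjusted p under 0.05. A stricter intensity filter kept 6 of the 15 genes, 4 below 0 and 1 lower at that level. With the difference between the Actb probes as a covariate 3 genes were lower at that level, and Fos read -0.31. The part of the Actb difference in the result was not tested further.

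Markers of neurons and of the striatum, a neighbouring region, also lay mostly below 0 in fed mice. Of 6 kept general neuron markers 5 did, all but Elavl3 (0.01), with a median of -0.10. Among the 6, 0 had an unadjusted p under 0.05, against 4.29% of all genes. Their mean was 9.52 to 9.69 in AgRP-/- fed and 9.64 to 9.87 in AgRP+/- fed arrays. Of 7 kept striatal markers 6 lay below 0, with a median of -0.11. An unadjusted p under 0.05 (4.29% of all genes) and groups that did not overlap (2.3%) were found for 1 of the 7. It was Pde10a, a phosphodiesterase gene of striatal projection neurons (-0.35, limma adjusted p = 0.999, unadjusted 0.0189). The mean of the 7 was 7.89 to 8.15 in AgRP-/- fed and 7.92 to 8.57 in AgRP+/- fed arrays. The part of either list in the differences of the immediate early genes was not tested.

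The fasted arrays, which share no array with the fed ones though the model pools their spread, gave the same direction. There 14 of 15 immediate early genes lay below 0, where 53.7% of all genes did, 9 were lower at an unadjusted p under 0.05 (3.84% of all genes), and the groups did not overlap for 7 in the lower direction (2.65% of all genes). The list median was -0.48. Arc differed by -0.53, Fos by -0.99, Fosb by -0.69 and Junb by -0.60, all with groups that did not overlap. Fosb read 4.57 to 4.68 in AgRP-/- fasted arrays, near the floor, so the size of its difference there is uncertain. Egr1 fell by 0.81 in fasted AgRP-/- mice (limma adjusted p = 0.0121). It and ILMN_2703427 were the 2 probes called there, 0.0146% of those tested. Egr1 was not called without the intensity trend, with the dopamine genes as a covariate, or without AgRP-/- fasted replicate 1, 2 or 4.

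The genotype by feeding interaction, which tests whether the genotype difference differed between feeding states, was below 0 for 12 of the 15 genes (52.5% of all genes), with a median of -0.20. It had an unadjusted p under 0.05 for 2 of them (2.64% of all genes), Egr1 (-0.62, limma adjusted p = 0.999, unadjusted 0.00155) and Egr4 (-0.68, unadjusted 0.0186). The interaction called 0 of 13662 probes with limma (0%), while 371 (2.72%) had an unadjusted p under 0.05. Arc had an interaction of -0.01.

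**Figure D4:**
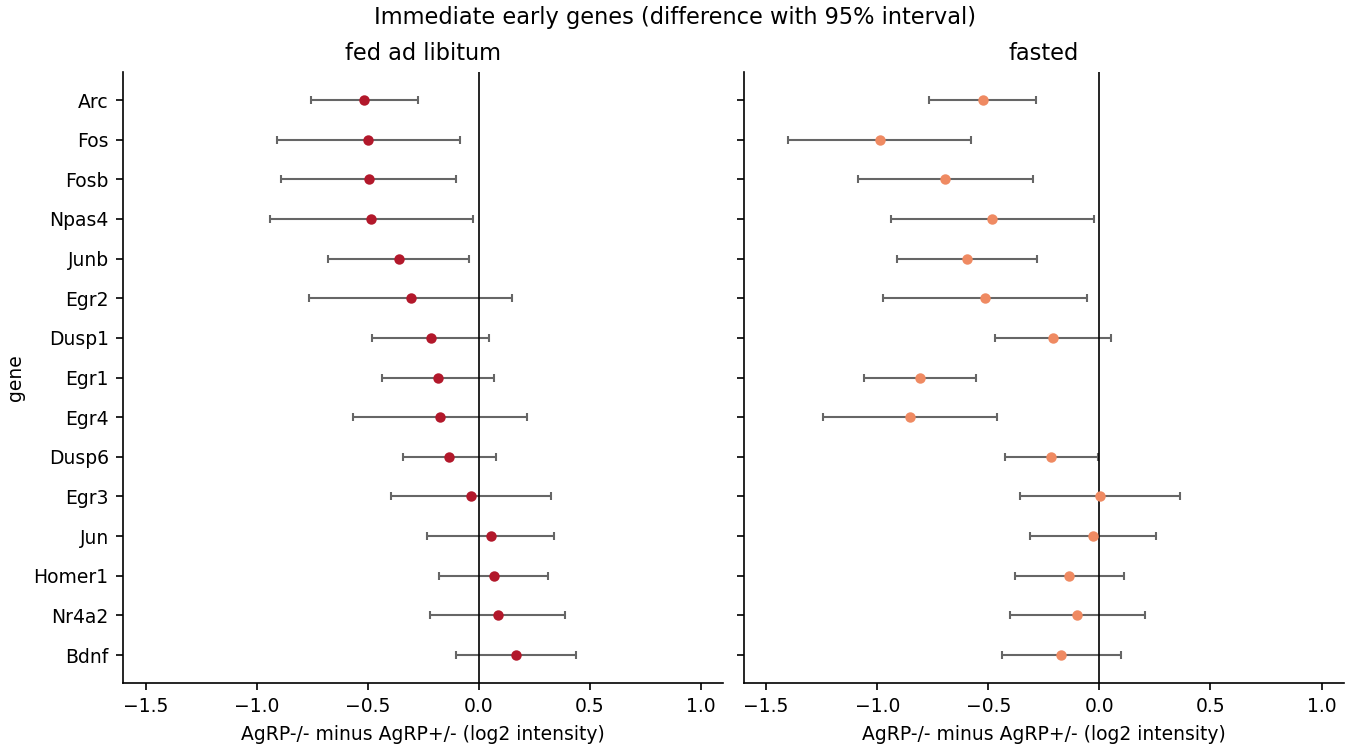
Genotype difference (x axis, AgRP-/- minus AgRP+/-, log2 intensity) with its unadjusted 95% interval for the 15 kept immediate early genes (y axis, ordered by the fed difference), in fed mice on the left and fasted mice on the right. The fed list runs from Arc at -0.52 to Bdnf at 0.17, and 14 of 15 points lie below 0 in fasted mice.

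Genes of glial filaments were among the differences in the other direction. Gfap, the intermediate filament of astrocytes, read 6.60, 6.81, 6.52 and 6.84 in AgRP-/- fed arrays, against 5.75, 5.90, 6.04 and 6.13 in AgRP+/- fed arrays. The groups did not overlap, and all AgRP-/- arrays were brighter. Gfap averaged 6.69 ± 0.156 in AgRP-/- and 5.95 ± 0.164 in AgRP+/- fed mice (SD, n = 4 each). The difference was 0.74 (SE 0.15), or 1.67-fold, the smallest p of any named gene in the fed comparison (limma adjusted p = 0.614, unadjusted 0.000112).

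C4b, which encodes complement component 4 and has a near-identical copy in the mouse genome that the probe may not separate, read 8.68, 9.22, 9.46 and 8.84 in AgRP-/- fed arrays, against 8.27, 8.14, 8.40 and 8.36 in AgRP+/- fed arrays. The groups did not overlap, and the difference was 0.76 (SE 0.16), or 1.69-fold (limma adjusted p = 0.614). Vim, a filament of tanycytes, vessel and meningeal cells and reactive astrocytes, read 7.83, 8.11, 8.64 and 8.0 in AgRP-/- fed arrays, against 7.58, 7.70, 7.64 and 7.78 in AgRP+/- fed arrays. All AgRP-/- arrays were brighter, by a narrow margin between AgRP-/- replicate 1 and AgRP+/- replicate 4, and the difference was 0.47 (SE 0.15, limma adjusted p = 0.999, unadjusted 0.00582).

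In the fasted arrays Gfap read 6.60 to 7.36 in AgRP-/- mice and 6.17 to 6.50 in AgRP+/- mice, a difference of 0.62 with groups that did not overlap. Vim differed by 0.45, again without overlap, and C4b by 0.51 with overlapping groups. Of the 9 kept astrocyte markers, Gfap included, 5 lay above 0 in fed mice, with a median of 0.014. Without AgRP+/- fed replicate 3 the median was -0.043, with 6 of the 9 below 0. Gja1, Aldoc and Aldh1l1 read -0.13, -0.09 and 0.09. The mean over the 9 markers was 9.50 to 9.61 in AgRP-/- fed and 9.38 to 9.61 in AgRP+/- fed arrays. Serpina3n, a protease inhibitor of reactive astrocytes, read 0.16 (95% interval -0.25 to 0.57) in fed mice.

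Markers of vessel walls and meninges, cell types that also express Vim, lay mostly above 0 as well. Of 13 such markers 9 were kept and 8 lay above 0 in fed mice, with a median of 0.22. None had an unadjusted p under 0.05 (4.29% of all genes) or groups that did not overlap (2.3%). Their mean was 7.72 to 9.12 in AgRP-/- fed and 7.35 to 8.68 in AgRP+/- fed arrays, and their median difference in fasted mice was 0.85. In fasted mice 3 of the 9 were higher at an unadjusted p under 0.05, against 3.29% of all genes, and none had groups that did not overlap. Of 10 ependymal and tanycyte markers 5 were kept, Vim included, and 3 lay below 0 in fed mice, with a median of -0.14. Nes, another intermediate filament gene, read 0.31, Foxj1, which drives the making of motile cilia, -0.18, and Crym -0.29. The mean over the 5 was 6.64 to 7.01 in AgRP-/- fed and 6.49 to 7.03 in AgRP+/- fed arrays. The part of either list in the differences of Gfap, C4b and Vim was not tested.

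By the rule that picked the 12 largest rises and falls among 138 genes with an unadjusted p under 0.05 and groups that did not overlap, the others brighter in AgRP-/- fed arrays were Abhd17c (0.74), which encodes a depalmitoylating enzyme, the retromer subunit gene Vps26b (0.68), the thioredoxin gene Txn1 (0.63), the neuronal transcription factor gene Pou3f2 (0.62), Golm2 (0.58), the endothelial receptor gene Cd93 (0.57), Pcmtd2 (0.57), the phosphatase gene Ptpn9 (0.54) and Pou5f1 (0.53). None was called. Abhd17c read 5.71, 5.69, 6.02 and 5.93 in AgRP-/- fed arrays, against 5.06, 5.05, 4.71 and 5.57 in AgRP+/- fed arrays, and 0.03 as its difference in fasted mice. Pou3f2 and Pou5f1 exceeded the table median in few arrays (4 and 6 of 16), mostly AgRP-/- fed ones. They passed the filter through the group in which they were high, so their rises carry little weight. A dimmer Golm2 probe read 0.00.

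Dimmer in AgRP-/- fed arrays, besides Arc and Fosb, were Ddx6 (-0.62), an RNA helicase of processing bodies, the potassium channel gene Kcnh1 (-0.56), the elongation factor gene Mllt1 (-0.56), Rpl3l (-0.54), the phosphate transporter gene Slc17a1 (-0.54), the translation inhibitor gene Pdcd4 (-0.52), Ldlrad2 (-0.49), the inducible chaperone gene Hspa1a (-0.48), Ociad2 (-0.48) and Sugct (-0.48). Slc17a1 and Ldlrad2 exceeded the table median in only 5 of the 16 arrays each, among them every AgRP+/- fed array. They passed the filter through the group in which they were high, so their falls carry little weight. Ddx6 read 7.81, 8.04, 8.0 and 7.80 in AgRP-/- fed arrays, against 8.66, 8.83, 8.50 and 8.15 in AgRP+/- fed arrays, without overlap (limma adjusted p = 0.689). Its fasted difference was 0.02, and the interaction was 0.65 (limma adjusted p = 0.999, unadjusted 0.00436). A dimmer Ddx6 probe read -0.35 in fed and 0.26 in fasted mice. Mllt1 had a dimmer probe at -0.13 in fed and -0.25 in fasted mice. Kcnh1 read 0.11 in fasted mice.

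Of the 12 genes picked as brighter 11 had the same sign in fasted mice and 4 also had an unadjusted p under 0.05 there, Gfap, C4b, Golm2 and Cd93. Of the 12 picked as dimmer 7 had the same sign and 4 such a p, Arc, Fosb, Mllt1 and Hspa1a. Across all 105 probes at an unadjusted p under 0.01 in fed mice, 78 (74.3%) had the same sign in fasted mice, against 58.6% of all kept probes. The sign and an unadjusted p under 0.05 were shared by 19 of them (18.1%), against 5.05% of all kept probes, 11 higher and 8 lower in AgRP-/- mice. Both differences of a probe carry the same SE, so picking a small p in fed mice also favours a small p in fasted mice. The differences in fed and fasted mice correlated at 0.285 (Pearson) and 0.230 (Spearman) across the 13662 probes, which share array design and are not independent, and the Pearson value was 0.241 without ILMN_2703427.

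**Figure D5:**
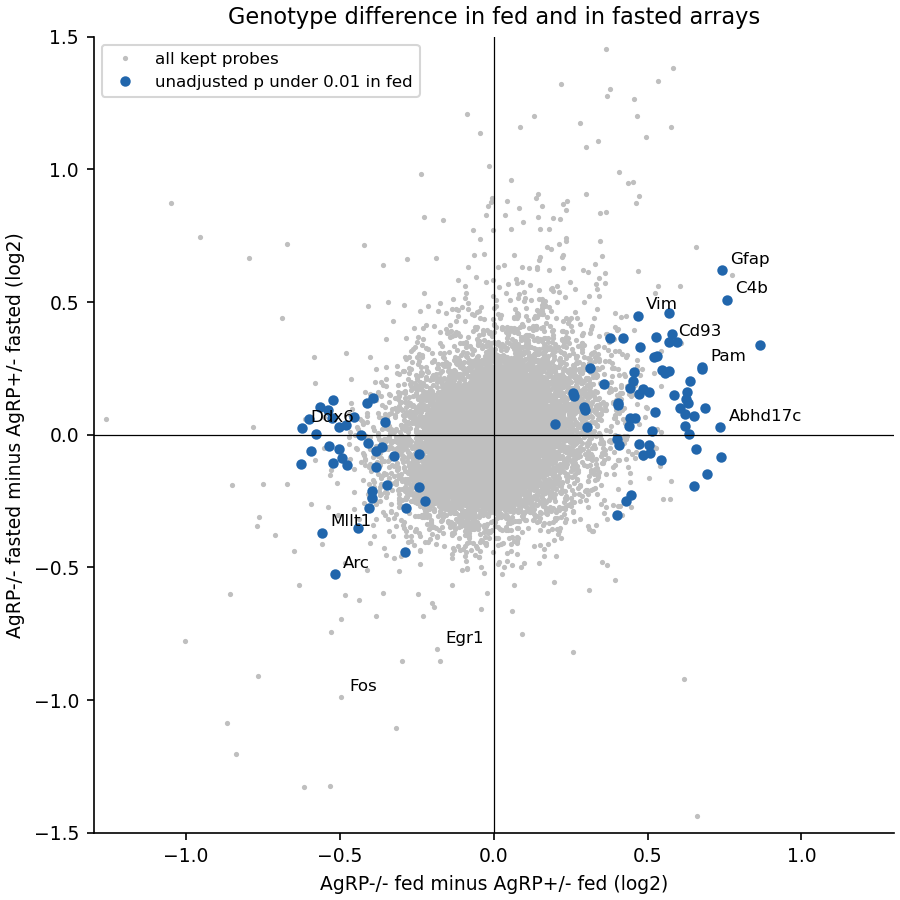
Genotype difference in fed mice (x axis) against that in fasted mice (y axis), both AgRP-/- minus AgRP+/- in log2 intensity, for all kept probes (grey) and the 105 at an unadjusted p under 0.01 in fed mice (blue); 5 probes lie outside the axes. Gfap, C4b and Vim lie at the upper right and Arc and Mllt1 at the lower left, while Ddx6 and Abhd17c lie near 0 in fasted mice.

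Among hypothalamic region markers 6 of 18 were kept, and 3 of the 6 had an unadjusted p under 0.05, against 4.29% of all genes. They were Lhx8 (-0.59), Foxb1 (0.34) and Nkx2-1 (0.33), with a second Foxb1 probe at 0.04. The groups of Lhx8 and Nkx2-1 overlapped, and the unadjusted limma p of Nkx2-1 was 0.0489. In fasted mice the 3 genes read -0.06, 0.11 and 0.05, and 0 of the 6 had such a p. Lhx8 marks ventral forebrain neurons, Foxb1 the mammillary region and Nkx2-1 much of the ventral hypothalamus. In cholesterol synthesis 2 of 17 kept genes reached that level, in opposite directions, with the sterol reductase gene Tm7sf2 at 0.43 and a list median of 0.015. Of 16 kept leptin, insulin and ghrelin signalling genes 1 did, the phosphatase gene Ptpn1 (0.38), which dampens both leptin and insulin receptors. None of 25 kept glucocorticoid responsive, 15 clock, 15 interferon response or 14 respiratory chain genes did.

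The gene closest to Agrp in the gene table among those kept is Atp6v0d1, a subunit of the vacuolar proton pump. All 4 of its kept probes read lower in AgRP-/- mice in both feeding states. Its brightest probe read 11.78, 11.95, 11.84 and 11.89 in AgRP-/- fed arrays, against 12.11, 11.77, 12.11 and 12.10 in AgRP+/- fed arrays. The groups overlapped through AgRP+/- replicate 2, and the difference was -0.16 (limma adjusted p = 0.999, unadjusted 0.0443). Another of its probes read -0.23 in fed (limma adjusted p = 0.999, unadjusted 0.0122) and -0.31 in fasted mice (unadjusted 0.00183). Of 75 kept genes within 5 megabases of Agrp, 2 had an unadjusted p under 0.05 in fed mice (4.29% of all genes), Atp6v0d1 and Nip7, a ribosome assembly factor (-0.16), both lower and neither called. In fasted mice there were 12 (7.14% of all genes), 3 higher (3.29%) and 9 lower (3.84%). Alleles carried along with a targeted gene on a mixed strain background cannot be told apart from the deletion itself in this design.

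The largest other differences came with a wide spread within a group. Of the 13662 probes 5 differed by more than 1 unit: ILMN_2703427, Pdrg1 (-1.84), Ccl21a (-1.26), Myl2 (-1.05) and Cyp2e1 (-1.0), the last 4 named after their values were seen. Pdrg1 read 4.45, 8.55, 4.49 and 9.31 in AgRP-/- fed arrays, against 8.30, 8.44, 8.80 and 8.61 in AgRP+/- fed arrays, so AgRP-/- replicates 1 and 3 stood near the floor and the other two among the AgRP+/- values. Ccl21a, a chemokine gene with near-identical copies in the mouse genome, read 6.66, 7.62, 4.43 and 4.32 in AgRP-/- fed arrays, against 7.0, 7.37, 6.63 and 7.07 in AgRP+/- fed arrays. Its low arrays were AgRP-/- replicates 3 and 4, and the groups of both genes overlapped.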

How the data were processed

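RNA of 16 hypothalamic samples was measured on Illumina mouse bead arrays after amplification to biotinylated cRNA, per the labels' protocols. The deposited table holds log2 intensities, with sorted columns differing by at most 0.0345. Limma was used by the authors, per the submitters' processing notes, without a stated role; how background and normalization were handled, and the scan batches, is not given in the sources used here. Detection p-values were not used, so low values could not be separated from background.

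Groups and replicate numbers came from the sample titles. Probes above the table median of 5.12 in at least 4 arrays were kept (13662, 53.2%). A linear model with 4 group coefficients and 12 residual degrees of freedom was fitted with lmFit and eBayes (trend on) of limma 3.58.1, run in R 4.3.3, and Benjamini-Hochberg adjustment covered the kept probes. It was tested on simulated data. Probes were named from the platform annotation (23978 with 1 symbol, 1719 with none); a gene with several probes is given by the one with the highest mean. A RefSeq gene table (GRCm38.p6) gave neighbours of Agrp and promoter windows, and 12 of 15 immediate early genes had a window. The members and gene lists were chosen with earlier results of these data known. Named genes were feeding genes set by name, the 12 largest rises and falls described with the results, the 4 members of each list with the smallest p, and genes near Agrp; Npas4, Egr1, Egr2, Egr4, Dusp1 and the probes differing by over 1 unit were named after their values were seen. Same-numbered fed arrays did not deviate together (correlations -0.140 to 0.042), and fasted ones not in every pair (-0.049 to 0.250), so replicate numbers were not used as pairs. Alternatives covered the filter, normalization, intensity trend, array weights, samples fitted, a replicate block, 1 probe per gene, left-out arrays and covariates for dopamine genes and Actb probes. The smallest exact permutation p for 4 against 4 arrays is 0.0286.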

Additional observations from a re-analysis of the deposited data

Results flagged for a closer look

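Among 156 groups of 4 fed arrays examined for a single array far from the other 3, 11 stood out, and chance alone flags about 1 in 20 groups. In AgRP-/- mice these were Pam in replicate 4 at 6.36 (others 5.94 to 6.01), Npy2r in replicate 3 at 7.36 (others 6.57 to 6.65), Serpina3n in replicate 1 at 10.1 (others 10.5 to 10.6), Rpl3l in replicate 2 at 5.65 (others 5.12 to 5.16) and Ptpn1 in replicate 1 at 5.11 (others 5.73 to 5.84). In AgRP+/- mice they were Pomc in replicate 3 at 8.86 (others 7.73 to 7.90), Egr1 in replicate 3 at 11.9 (others 11.4), Mc4r in replicate 1 at 5.78 (others 6.23 to 6.29), Cyp2e1 in replicate 1 at 8.67 (others 4.50 to 4.79), Thra in replicate 2 at 5.17 (others 4.64 to 4.69) and Atp6v0d1 in replicate 2 at 11.8 (others 12.1).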

How the results depend on the processing

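The fed comparison called 1 probe, ILMN_2703427, under every alternative run that kept all fed arrays, and 1 to 2 probes with an array left out; the second was 4833439L19Rik without AgRP-/- fed replicate 1 (0.66, limma adjusted p = 0.0204). The difference of ILMN_2703427 ranged from -4.08 to -3.53. Adding the replicate number as a block left 1 call, with ILMN_2703427 at -3.85 (adjusted p = 1.66e-06). The fasted comparison called 1 probe without the intensity trend and 1 with the dopamine genes as a covariate, and 1 to 3 with an array left out; the call lost was Egr1. The interaction called 0 to 1 probes with an array left out; the call was ILMN_2703427 without AgRP+/- fed replicate 3 (-2.33, adjusted p = 0.00592), and its size is set by a floor. Of 77 named genes 70 kept their sign under all alternatives, none was called, and 14 of 1572 values changed sign. The changed values were those of Npy, Mc3r, Sst, Oxt, Npy2r, Tac2 and Cyp2e1. Tac2, at 0.15 in the main fit, kept its sign with each fed array left out (0.035 to 0.40). Sst read -0.055 without AgRP+/- fed replicate 2, the array over 2 units in pituitary transcripts, -0.026 without the arrays over 1 unit (AgRP-/- replicate 1 too, an alternative chosen after seeing the data) and -0.019 with the Actb covariate, and Tac2 -0.0028 with the latter covariate. With fed arrays left out in turn, the lowest and highest differences were -0.048 and 0.31 for Npy, -0.019 and 0.12 for Mc3r, -0.055 and 0.13 for Sst, -0.012 and 0.15 for Oxt, -0.10 and 0.18 for Npy2r, and -1.38 and 0.0082 for Cyp2e1. The cause of these shifts was not tested. The number of arrays limits the precision, and signal near the floor cannot be measured.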

Other observations

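Probes in which arrays fell into separate levels were not limited to the genotype groups. A gap of over 2 units between neighbouring sorted values, with at least 2 of the 16 arrays on each side, was found for 8 kept probes. Besides ILMN_2703427, Pdrg1 and Ccl21a these included Dennd2a, which read 4.44 in AgRP+/- fed replicate 1 and 4.70 in AgRP-/- fasted replicate 3, against 7.27 to 8.59 elsewhere. Pdrg1 was also near the floor in AgRP+/- fasted replicate 3 (4.72).

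The liver genes Cyp2e1, Serpina1b and Serpina1e, which encode a cytochrome P450 and alpha-1-antitrypsins, were high in the same AgRP+/- fed array. In AgRP+/- fed replicate 1 Cyp2e1 read 8.67, the brighter Serpina1b probe 9.29 and Serpina1e 8.08. All 3 were also high in AgRP+/- fasted replicate 3, with Cyp2e1 at 8.28, Serpina1b at 8.98 and Serpina1e at 7.65. Without AgRP+/- fed replicate 1 the difference of Cyp2e1 was 0.0082.

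Erdr1, a gene whose level varies between mouse strains, read 0.62 in fed and -0.92 in fasted mice, with an interaction of -1.54 (limma adjusted p = 0.999, unadjusted 0.00353, not called). Of 8 kept strain-variable genes 0 had an unadjusted p under 0.05 in fed mice, against 4.29% of all genes.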
